A study of Caenorhabditis elegans with 39 samples.

Results

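The comparison described here is that of starved first-stage (L1) larvae whose ancestors had passed through a long-term dauer with starved larvae of control ancestry. Its libraries were taken by their labels: of the 39 libraries of the series, 7 were labelled long-term dauer and starved, and 12 were labelled control and starved. The comparison was set up with earlier results of these data known. One of the 7, LC4_49d, was left out of the main comparison for its expression, as described below. All came from Caenorhabditis elegans of the wild-type strain N2, with no transgene or mutation in either group. Per the labels' protocols, embryos were put in liquid culture under conditions that form dauers or under control conditions, the worms were then recovered and fed, and the F3 generation was set up as embryos in liquid culture without food for 24 h before whole larvae were frozen. Polyadenylated RNA was sequenced in 2 batches. Starved long-term dauer descendants gave 3 libraries in batch 1 (LC3_40d, LC3_49d and LC4_49d) and 4 in batch 2 (2, 4, 6 and 7), and starved controls gave 5 in batch 1 (LC6, LC10, LC11, LC12 and LC14) and 7 in batch 2 (2, 4_10, 6, 7, 13, 14 and 16). The labels do not spell out what 40d and 49d stand for, and LC3_40d and LC3_49d share a line name.

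The dauer is an arrested, stress-resistant larval form that worms enter in place of the third larval stage when food is scarce and the population is dense. Entry is governed by insulin-like signalling through the receptor DAF-2 and the transcription factor DAF-16, by TGF-beta signalling and by the steroid receptor DAF-12. Larvae that hatch without food arrest in the first stage, also under the control of DAF-2 and DAF-16, and live on stored fat through beta-oxidation and the glyoxylate cycle. Small-RNA and histone methylation pathways carry some gene expression states across generations in this worm, and the comparison asks whether starved larvae 3 generations after a long-term dauer differ in mRNA from those without it.

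Gene counts per library were 26600777 to 29887342 in long-term dauer libraries against 23493643 to 30313127 in control libraries of batch 1, and 8836723 to 10700587 against 10211447 to 13740490 in batch 2. No pair of libraries within a group agreed within sampling noise, since the lowest chi-square statistic per degree of freedom was 4.03. The 3 libraries LC4_49d, control LC6 and control 14 stood apart from the rest. In LC4_49d, labelled starved long-term dauer, 26.1% of genes lay more than 1 log2 unit from the mean of the controls of its batch, and the 42 genes of a list of growth in fed larvae summed to 11400 counts per 1000000 gene counts (CPM), against 297 to 392 CPM in the other 6 starved long-term dauer libraries and 264 to 765 CPM in starved controls. That library was left out of the main comparison, and results with it are given where they differ. In control LC6 and control 14 the share was 6.65% and 4.69%. It was at most 0.656% in each of the other 16 libraries.

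The starved transcriptomes of the 2 ancestries were close to each other. In edgeR's quasi-likelihood test with batch as a term, 0 of 15440 genes (0%) differed at an adjusted p under 0.05 between 6 long-term dauer and 12 control libraries, and the lowest adjusted p was 0.999. At an unadjusted p under 0.05 there were 311 genes (2.01%), 145 higher (0.939%) and 166 lower (1.08%) in long-term dauer descendants, fewer than the 772 that a test of this many genes would give if none differed. DESeq2 called 1 gene at an adjusted p under 0.05 (0.00648%), the signal recognition particle RNA srpr-2.1 (adjusted p = 0.0174), and 383 at an unadjusted p under 0.05 (2.48%). The 95% interval of the log2 fold change lay within a 2-fold change in either direction for 14164 of 15440 genes. Its median half-width was 0.20 on the log2 scale for the 8227 genes with a mean of at least 10 CPM.

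Direction was then compared between the batches, which share no library. The log2 fold change had the same sign in batch 1 and batch 2 for 8181 genes (53%), of which 3633 were higher (23.5%) and 4548 lower (29.5%) in both. Of the 248 genes at an unadjusted p under 0.05 in batch 1 (1.61%), 44.8% kept their sign in batch 2. Of the 296 such genes in batch 2 (1.92%), 49.7% kept it in batch 1. Of the 8 genes at an unadjusted p under 0.05 in both batches, 2 had the same sign (25%). Across genes, which are not independent replicates, the fold changes of the batches had a Pearson correlation of 0.0447 over all 15440 genes and of 0.321 over the 8227 better expressed ones. Of the genes at an unadjusted p under 0.05 in the combined fit, 306 (1.98%) had the same sign in both batches, 142 higher (0.92%) and 164 lower (1.06%). The combined fit averages the batches, so a gene that passes it has mostly the same sign in both. The difference of the effect between the batches passed an adjusted p under 0.05 for 0 genes (0%) in edgeR and an unadjusted p under 0.05 for 265 (1.72%).

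**Figure D1:**
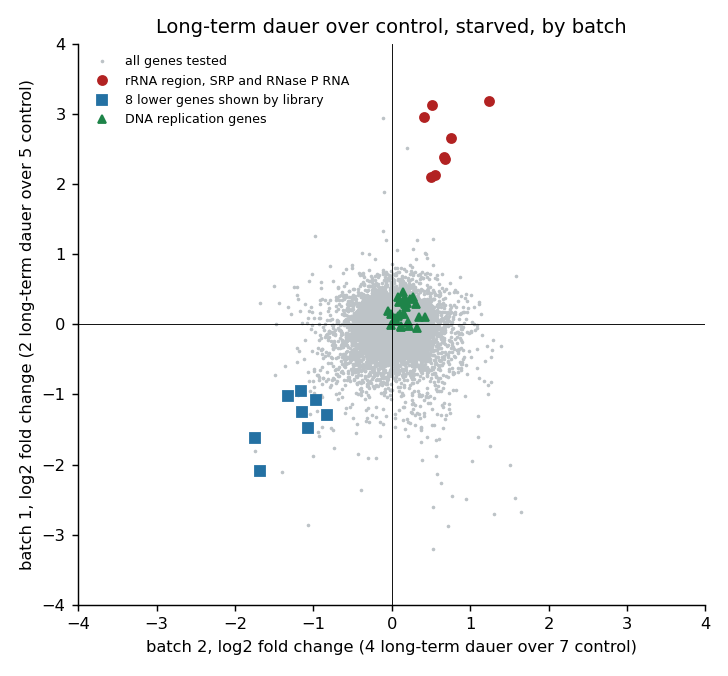
Log2 fold change of long-term dauer over control among starved larvae, in batch 2 (horizontal axis) and batch 1 (vertical axis), 1 point per gene; 1 of 15440 genes lies outside the plotted range. The 8 marked structural RNA features sit at 2 or more in batch 1 and at 0.42 to 1.24 in batch 2, the 8 marked lower genes are below 0 in both, and 19 of the 26 DNA replication genes are above 0 in both.

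The largest higher values belonged to structural RNAs, none of which codes for a protein. The signal recognition particle is the ribonucleoprotein that brings secretory proteins to the endoplasmic reticulum, and srpr-2.1, srpr-2.2 and srpr-1.2 are annotated as copies of its RNA. The copy srpr-1.2 had a log2 fold change of 1.58 (edgeR unadjusted p = 0.00492), but its sign turned in batch 2 alone. Without LC3_40d its call was lost (p = 0.0629). For srpr-2.1, the long-term dauer libraries had 23.9 and 8.89 CPM in batch 1 and 5.28, 1.92, 1.09 and 1.96 CPM in batch 2. The control libraries had 0.53 to 3.68 CPM in batch 1 and 0.544 to 2.07 CPM in batch 2. Both batch 1 libraries and 1 of the 4 batch 2 libraries lay above all controls of their batch, and the others were within the control range. The log2 fold change was 2.22 (SE 0.437, edgeR unadjusted p = 7.87e-05, adjusted p = 0.999). RNase P cuts the leader from transfer RNA precursors, and its RNA, rpr-1, had 9.91 and 4.09 CPM in batch 1 and 0.736 to 2.26 CPM in batch 2 in long-term dauer libraries, against 0.156 to 2.05 CPM and 0.29 to 1.41 CPM in control libraries (log2 fold change 1.72, SE 0.451, edgeR unadjusted p = 0.00121). Its level was low, so the fold change rests on few reads per library.

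Ribosomal RNA followed the same pattern at far higher levels. The ribosomal DNA of this worm is a tandem array that gives the small-subunit, 5.8S and large-subunit RNAs. All 5 rRNA features that could be tested were higher at an unadjusted p under 0.05. The lowest of them, MTCE.7, is mitochondrial and not part of that array. Its log2 fold change was only 0.30 (0.21 to 0.38 when 1 library was left out), and its call was lost in 5 of those 18 fits. The large-subunit RNA rrn-3.1 had 101777 and 57759 CPM in batch 1 and 48071, 30450, 14066 and 16413 CPM in batch 2 in long-term dauer libraries. In control libraries it had 9285 to 34287 CPM in batch 1 and 11428 to 30587 CPM in batch 2. The 2 libraries of batch 1 and library 2 of batch 2 were above every control of their batch, library 4 was just below the highest control, and libraries 6 and 7 were inside the control range. Its log2 fold change was 1.19 (SE 0.349, edgeR unadjusted p = 0.00325), 2.14 in batch 1 and 0.55 in batch 2. The 5.8S RNA rrn-2.1 (1.53), the rRNA features F31C3.7 and F31C3.8 (1.37 each) and the neighbouring pseudogene F31C3.10 (1.15) also had higher values, and for all 8 of these structural features the batch 1 effect was the larger one (unadjusted p of the difference between batches 0.000854 to 0.0367, edgeR, none past the adjusted threshold). Without LC3_40d all 8 kept an unadjusted p under 0.05, but with smaller log2 fold changes, 0.82 for rrn-2.1, 1.15 for srpr-2.2 (1.79 with it) and 0.86 for rrn-3.1. Copies of the same rRNA are nearly identical, so how reads were divided among them is uncertain. In each starved library of the 2 ancestries, 12 to 16 of the 21 rRNA features were at 0.

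As a share of all gene counts, rRNA took 14.4% and 8.04% in the 2 long-term dauer libraries of batch 1 that entered the fit and 14% in LC4_49d. The batch 1 controls had 1.40% to 5.11%. In batch 2, long-term dauer libraries 2, 4, 6 and 7 had 7.0%, 4.33%, 2.08% and 2.62%, against 1.68% to 4.37% in controls. Fed larvae of the same lines, sequenced in batch 1 only, gave 17%, 4.8% and 7.45% in the 3 long-term dauer libraries and 1.43% to 2.62% in the 4 controls. The 3 fed long-term dauer libraries were thus all above the fed controls. Of the 10 genes that DESeq2 called in fed larvae at an adjusted p under 0.05 (0.0648%), all were non-coding or pseudogene features, among them srpr-2.1, srpr-2.2, rpr-1, the RNase MRP RNA mrpr-1, rrn-3.1, F31C3.7, F31C3.8 and F31C3.10. The edgeR test called 0 genes in fed larvae at an adjusted p under 0.05 and 468 at an unadjusted one (3.03%), with a log2 fold change of 2.41 for rrn-3.1 (unadjusted p = 0.000739). Starved short-term dauer descendants, compared with the same 12 controls, had a log2 fold change of -0.11 for rrn-3.1 and 0.15 for srpr-2.1.

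**Figure D2:**
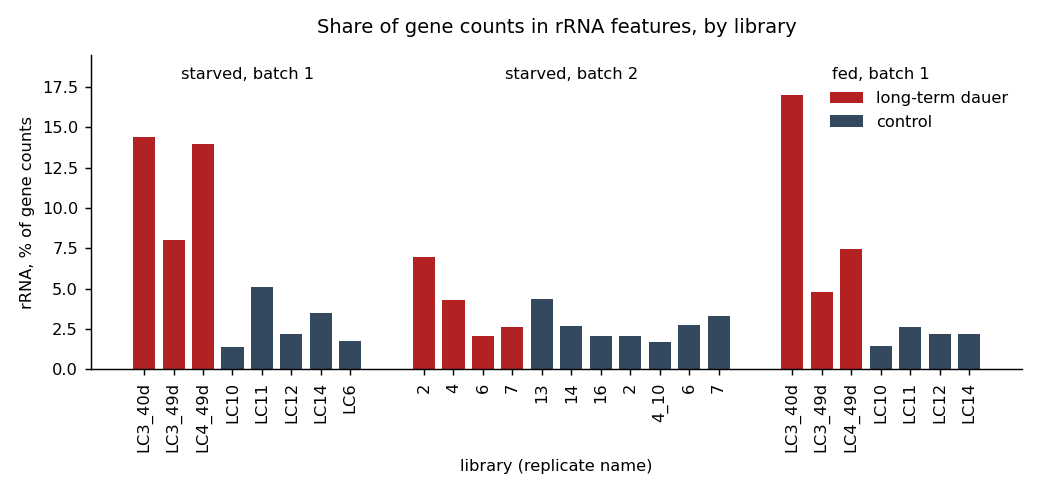
Share of gene counts in rRNA features (%, vertical axis) for each library of long-term dauer (red) and control ancestry (dark), by feeding and batch. Long-term dauer libraries of batch 1 are at 4.8% to 17%, against 1.40% to 5.11% in batch 1 controls, while 3 of the 4 batch 2 long-term dauer libraries lie within the batch 2 control range.

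Ribosomal RNA has no poly(A) tail in the main, so its share in libraries of polyadenylated RNA also reads the selection step, and the labels give no RNA quality value. All 6 long-term dauer libraries of batch 1, fed and starved, were on lane 4, as were starved controls LC6, LC10 and LC11 and fed controls LC10 and LC11. With batch 1 restricted to lane 4, the median log2 fold change of the 5 rRNA features was 1.26 and 4 of them passed an unadjusted p under 0.05. With LC3_40d and LC3_49d summed into 1 library it was 1.19, again with 4. In batch 2 alone it was 0.55, with 0. Without controls LC6, 13 and 14 it was 1.43, with 4. The 10 most abundant genes took 14.2% to 20.4% of gene counts in starved batch 1 long-term dauer libraries, against 8.25% to 11.2% in starved batch 1 controls. The summed level of the signal recognition particle RNAs went with the rRNA share at its upper end. Among starved long-term dauer libraries both were highest in LC3_40d in batch 1 and in library 2 in batch 2. Among starved controls both were highest in LC11 in batch 1 and in 13 in batch 2. Whether library preparation has a part in the rRNA values was not tested. The same holds for the values of srpr-2.1, srpr-2.2, srpr-1.2, rpr-1 and mrpr-1.

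Among protein-coding genes with at least 5 CPM, the largest higher values were small. The antimicrobial peptide gene cnc-3 had 7.29 to 18.6 CPM (median 8.55) in long-term dauer libraries and 3.54 to 12 CPM (median 7.30) in controls, and the groups overlapped (log2 fold change 0.54, SE 0.236, edgeR unadjusted p = 0.0344). Without controls LC6, 13 and 14 it was 0.34 (p = 0.103), and the call was also lost in 6 of the 18 fits that left out 1 library. The gene of a secreted immunoglobulin-domain protein, zig-7, had 14.6 to 25.5 CPM (median 16) in long-term dauer libraries and 7.05 to 18.5 CPM (median 11.9) in controls, with libraries 2 and 4 above every control (0.51, SE 0.184, p = 0.0123). The gene C33G8.2 had a mean of 7.73 CPM in long-term dauer libraries and 5.01 CPM in controls (0.52, p = 0.0159), and without long-term dauer library 2 it was at 0.34 (p = 0.081).

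Most of the genes with the largest lower values shared a different pattern, in which 3 control libraries stood above the others of the fit. For dao-6, described below, this held for LC6 and 14 only. The glutathione S-transferase gene gst-20, of a family that conjugates glutathione to toxic compounds, had 47.8, 54.3, 63.1, 51.6, 52.4 and 41.8 CPM in the 6 long-term dauer libraries. It had 887, 268 and 646 CPM in controls LC6, 13 and 14 and 38 to 66.7 CPM in the other 9 controls. The long-term dauer values therefore lay inside the range of those 9. The log2 fold change over all 12 controls was -1.83 (SE 0.828, edgeR unadjusted p = 0.0408), and without LC6, 13 and 14, left out after their values were seen, it was 0.05 (p = 0.693). The lipase-family gene lipl-2 had 11.5 to 18.2 CPM in long-term dauer libraries, against 144, 67.8 and 181 CPM in controls LC6, 13 and 14 and 9.91 to 28.1 CPM in the other controls (log2 fold change -1.70, p = 0.0342, and -0.15 without those 3).

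The cysteine protease gene cpr-2 (-1.21), the transferase genes gst-15 (-1.18) and gst-12 (-0.99), the F-box gene fbxc-7 (-0.71), the pseudogene C08E3.5 (-1.17) and the uncharacterised W02D7.11 (-1.08) were likewise highest in the same controls, and without the 3 their unadjusted p-values were 0.0737 to 0.672. T10C6.15 (-1.22 over all controls) had a log2 fold change of -0.29 without them (p = 0.00627). Those 3 controls were picked after their high values in such genes were seen, so leaving them out shrinks these differences by construction. Throughout, fits without them describe how far values rest on those libraries and do not test which genes differ. The gene dao-6, named for its expression in dauers and ageing adults, had 4.16, 4.65, 3.23, 3.93, 2.88 and 3.60 CPM in long-term dauer libraries. It had 19.9 CPM in control LC6, 17.9 CPM in control 14 and 2.96 to 8.03 CPM in the other controls, among which 2 batch 2 libraries were in the long-term dauer range. Both batch 1 long-term dauer values were below all 5 batch 1 controls. Its log2 fold change was -1.01 (SE 0.362, p = 0.0119), and -0.51 without LC6, 13 and 14 (p = 0.00239).

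**Figure D3:**
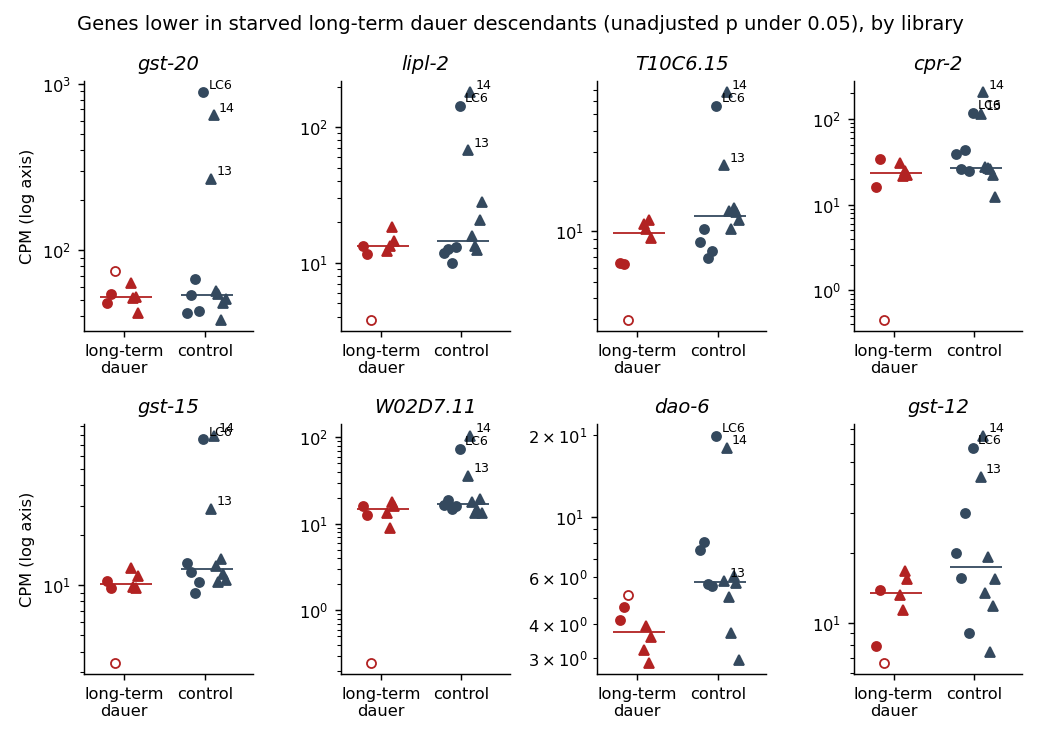
CPM (log axis) of 8 genes lower in long-term dauer descendants, for each starved library of long-term dauer (red, left) and control ancestry (dark, right); circles are batch 1, triangles batch 2, the open circle is LC4_49d, and bars are medians without it. In most panels controls LC6, 13 and 14 stand above the other libraries, for gst-20 at 887, 268 and 646 CPM.

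Controls LC6 and 14 also differed from the other starved controls, and from the 6 long-term dauer libraries of the fit, in some genes of fasting and of DAF-16. Low fasting levels were not particular to these 2 controls. The fasting metabolism list summed to 5620 CPM in LC6 and 5070 CPM in 14. It summed to 7920 CPM in LC4_49d and to 4740 CPM in the lowest starved short-term dauer library of batch 2. The summed level of the 17 listed DAF-16 targets did not set them apart, at 11500 CPM in LC6 and 12000 CPM in 14. Over all controls that sum ran from 10900 to 13200 CPM in batch 1 and from 11100 to 19100 CPM in batch 2. The glyoxylate-cycle enzyme gene icl-1 had 2149 to 4288 CPM in long-term dauer libraries, against 214 CPM in LC6, 141 CPM in 14 and 2245 to 3739 CPM in the other controls. The alcohol dehydrogenase gene adh-1 had 2357 to 5008 CPM in long-term dauer libraries, against 264 and 176 CPM in LC6 and 14 and 2901 to 5634 CPM in the rest. In the opposite direction, the small heat shock gene hsp-12.6 had 1.39 to 3.84 CPM in long-term dauer libraries, against 52.0 and 32.1 CPM in LC6 and 14 and 1.59 to 2.96 CPM in the other controls. The superoxide dismutase gene sod-3, a standard DAF-16 target, had 3.02 to 6.30 CPM in long-term dauer libraries, against 25.5 and 21.4 CPM in those 2 and 2.97 to 7.22 CPM in the rest. None of these 4 genes passed an unadjusted p under 0.05, and their log2 fold changes over all controls were 0.25, 0.15, -1.69 and -0.77. Apart from LC6 and 14, the long-term dauer and control levels of these genes overlapped.

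Genes that passed an unadjusted p under 0.05 in the main fit and in each of the 18 fits that left out 1 library numbered 65 (0.421%), 29 higher and 36 lower. Of the 32 among them with at least 5 CPM in the higher group, 21 were higher, and these 21 were 14 protein-coding genes, 4 rRNA features, 2 other non-coding RNAs and 1 pseudogene. These genes were singled out after their values were seen. The uncharacterised R05H5.3 had 13, 10.3, 9.27, 10.8, 11 and 9.73 CPM in long-term dauer libraries. Controls had 7.87 to 10.7 CPM in batch 1 and 5.82 to 8.78 CPM in batch 2. All 4 batch 2 long-term dauer libraries were above all 7 batch 2 controls, and in batch 1 1 of the 2 was above all 5 controls (log2 fold change 0.39, SE 0.101, edgeR unadjusted p = 0.00107).

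The genes pid-3 and tost-1 encode subunits of the PETISCO complex, which acts in piRNA biogenesis and embryogenesis. The gene pid-3 had 11.8 to 14.9 CPM (median 13.7) in long-term dauer libraries and 8.69 to 13.4 CPM (median 11.7) in controls, with 4 of the 6 long-term dauer libraries above every control of their batch (0.26, SE 0.0884, p = 0.00823). Its partner tost-1 had a mean of 4.66 CPM in long-term dauer libraries and 3.85 CPM in controls (0.31, p = 0.0226). The importin gene ima-2 (0.28) and the kinetochore gene him-10 (0.24) were also higher, and the Argonaute gene alg-5 (-0.26) and F56C9.8 (-0.29) were lower. For F56C9.8, long-term dauer libraries had 44.7 to 61.5 CPM (median 54) and controls 44.3 to 83.4 CPM (median 62.0), with 3 of the 4 batch 2 long-term dauer libraries below all batch 2 controls. In batch 1 control LC14 was the lowest of the 7 libraries in the fit.

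The genes mcm-4, pri-2, dut-1 and exo-1 in that set act in DNA replication, its repair or nucleotide supply, so a list of that machinery was drawn up after their values were seen and is given as a description only. Of its 26 tested members, 25 had a log2 fold change above 0, against 48.5% of all genes. The sign was higher in both batches for 19 and lower in both for 1, against 23.5% and 29.5% of all genes. The median was 0.19, against -0.00 over all genes, and 7 members were higher at an unadjusted p under 0.05 and 0 lower, where 0.939% of all genes were higher and 1.08% lower. The genes mcm-4, pri-2, dut-1 and exo-1, which prompted the list, are among those 7. The values of the list are therefore raised by how it was drawn up, and its excess over all genes is not a test. The helicase gene mcm-4 had 32.3, 35.7, 25, 24.8, 25.6 and 22.7 CPM in long-term dauer libraries and 21.6 to 29.7 CPM in batch 1 and 12 to 23.1 CPM in batch 2 in controls. Both batch 1 libraries and 3 of the 4 batch 2 libraries were above all controls of their batch (0.28, SE 0.0978, edgeR unadjusted p = 0.0085). All 6 subunits of the MCM2-7 helicase, mcm-2 to mcm-7, lay above 0, at 0.12 to 0.28, with mcm-5 (0.22) also at an unadjusted p under 0.05.

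The primase subunit pri-2 (0.31), the polymerase alpha subunit pola-1 (0.21), the ribonucleotide reductase subunit rnr-1 (0.24), the dUTPase dut-1 (0.27) and the exonuclease exo-1 (0.32) made up the rest of the 7. The clamp loader subunit rfc-1 was the member below 0, at -0.01. Summed over the list, long-term dauer libraries had 669 and 648 CPM in batch 1 and 550, 561, 537 and 513 CPM in batch 2, against 495 to 632 CPM and 388 to 543 CPM in controls. Both batch 1 values and 2 of the 4 batch 2 values exceeded every control of their batch. The lowest controls were 14 at 388 CPM, 13 at 462 CPM and LC6 at 495 CPM, and without these 3 the median log2 fold change was 0.10, with 6 members higher. In batch 2 alone 0 members passed, with a median of 0.15. The list had a higher summed level in fed larvae: fed libraries summed to 2010 to 2260 CPM in long-term dauer descendants and 1830 to 2100 CPM in controls, and LC4_49d, left out here, to 1870 CPM. Among fed larvae the list had a median log2 fold change of 0.04.

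**Figure D4:**
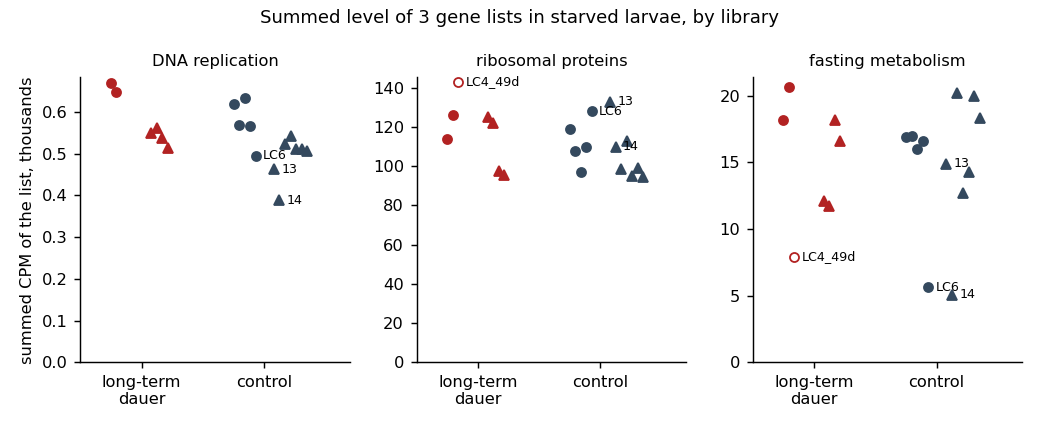
Summed CPM (axis in units of 1000 CPM) of 3 gene lists in each starved library, long-term dauer (red, left) and control (dark, right), circles for batch 1 and triangles for batch 2; LC4_49d is an open circle and, at 1870 CPM, is not drawn in the DNA replication panel. DNA replication sums run from 513 to 669 CPM in long-term dauer and 388 to 632 CPM in control libraries, and controls LC6 and 14 are lowest for fasting metabolism at 5620 and 5070 CPM.

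Ribosomal protein genes leaned the same way by a smaller amount. Of 77 tested, 70 had a log2 fold change above 0, against 48.5% of all genes. In both batches 61 were higher, against 23.5% of all genes. The median was 0.07, and 0 passed an unadjusted p under 0.05. The large-subunit protein gene rpl-3 had a mean of 4417 CPM in long-term dauer libraries and 4415 CPM in controls. Summed over the family, long-term dauer libraries had 114000 and 126000 CPM in batch 1 and 95700 to 125000 CPM in batch 2, against 97100 to 128000 CPM and 94400 to 133000 CPM in controls, so the groups overlapped throughout. Controls LC6 and 13 had the highest control values of their batches. Without LC6, 13 and 14, 39 of the genes were higher at an unadjusted p under 0.05, in a fit in which 315 of 15303 genes passed (2.06%), 193 of them higher (1.26%), and the median was 0.15. The counts of this family therefore depended on which controls were kept.

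In the pathways that govern dauer entry and L1 arrest, no gene of the lists described passed an unadjusted p under 0.05. Of 20 insulin signalling genes, 0 passed an unadjusted p under 0.05 in edgeR or had a 95% interval reaching a 2-fold change. The receptor gene daf-2 had a mean of 347 CPM in long-term dauer libraries and 380 CPM in controls (log2 fold change -0.12, 95% interval -0.46 to 0.22). The transcription factor gene daf-16 had 305 and 321 CPM (-0.08, -0.28 to 0.12), and the kinase genes akt-1 and akt-2 were at -0.16 and -0.21. Of 25 insulin-like peptide genes 0 passed, and daf-28, an insulin that opposes dauer entry, had 18.4 CPM in long-term dauer libraries and 18.6 CPM in controls (-0.00, -0.22 to 0.22). Of 22 genes of TGF-beta, steroid and pheromone signalling for dauer 0 passed, with daf-7, the TGF-beta ligand, at -0.04 and daf-12 at -0.13. The Rieske oxygenase gene daf-36, which acts in making the dauer-inhibiting steroid, was at 0.51 (95% interval -0.01 to 1.02).

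The list of small-RNA and chromatin genes tied to inheritance also had 0 of 43 members at an unadjusted p under 0.05, and all 43 intervals lay within a 2-fold change. The small-RNA genes pid-3, tost-1 and alg-5, which passed that threshold as described above, are not on this list. The nuclear Argonaute gene hrde-1 was at -0.00, the Piwi gene prg-1 at 0.08, the histone methyltransferase genes set-25, met-2 and set-2 at 0.17, -0.02 and 0.01, and the demethylase gene spr-5 at 0.04. DAF-16 targets had 0 of 16, with a median of -0.10, and 9 of the 16 intervals lay within a 2-fold change. The wide ones included hsp-12.6 and sod-3, whose high control libraries are described above. Fasting metabolism had lipl-2 as its 1 of 34 members, with a median of 0.08. Acyl-CoA synthetase acs-2 had a mean of 1150 CPM in long-term dauer libraries and 1020 CPM in controls, but its 95% interval ran from -1.54 to 1.83, so at this spread a 2-fold change in either direction could not be seen. Heat shock genes (0 of 27) and genes of the intracellular pathogen response (0 of 33) had medians of 0.05 and 0.00.

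Among the larger families, F-box genes, whose products choose proteins for ubiquitination, had 2 members higher and 11 lower of 166 at an unadjusted p under 0.05, where 0.939% of all genes were higher and 1.08% lower. In both batches 20 were higher and 63 lower, where 23.5% and 29.5% of all genes were. Among the lower ones, weakly expressed examples were fbxa-89 at a mean of 0.563 CPM in long-term dauer libraries and 1.1 CPM in controls (-0.90, p = 0.00103) and fbxa-172 at 0.486 and 1.11 CPM (-1.12, p = 0.0135). Without LC6, 13 and 14 the counts were 1 higher and 6 lower. Glutathione S-transferases had 3 lower and 0 higher of 42, and without those 3 controls 0 lower and 1 higher. Of 216 nuclear hormone receptor genes 1 was higher (nhr-23, 0.29) and 2 were lower (nhr-230, -0.25, and nhr-120, -0.23), shares near those of all genes. Without LC6, 13 and 14 none of these 3 passed (p = 0.0973, 0.122 and 0.126). Of 97 neuropeptide genes 3 were higher and 2 lower, and without the 3 controls 0 were called in either direction. For nlp-24, long-term dauer libraries had 17.3 to 32.8 CPM (median 19.8) and controls 11.6 to 27 CPM (median 16.9), and for nlp-26 they had 9.74 to 18.9 CPM (median 16.7) and 6.83 to 17.4 CPM (median 12.7). Both overlapped between the groups (0.35 and 0.36, p = 0.0258 and 0.0233, and p = 0.0585 and 0.0673 without LC6, 13 and 14). Collagen genes had 0 of 111 and cytochrome P450 genes 1 lower of 69.

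**Figure D5:**
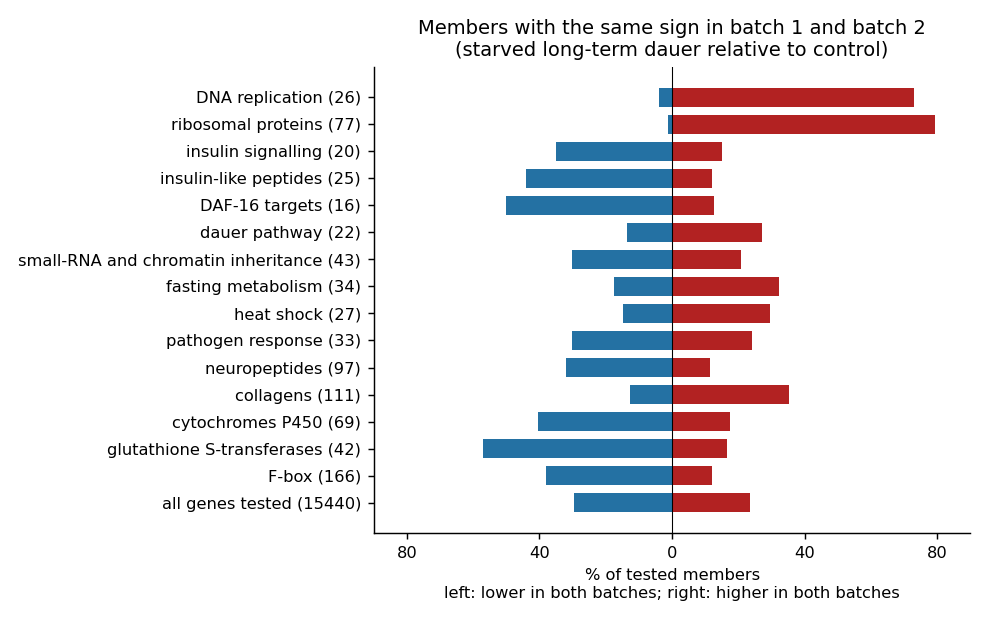
Share of the tested members of each list (%, number tested in brackets) that were lower in both batches (blue, left) or higher in both batches (red, right) in starved long-term dauer relative to control larvae. All genes tested were at 29.5% and 23.5%; 61 of 77 ribosomal protein genes and 19 of 26 DNA replication genes, the replication list drawn up after values were seen, were higher in both.

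No listed marker of tissue or stage was called between the ancestries. Muscle, intestine, neuron, epidermis and pharynx genes were all detected, and of the 9 tested 0 passed an unadjusted p under 0.05. The body wall myosin gene unc-54 averaged 5120 CPM in long-term dauer libraries and 5590 CPM in controls, the intestinal esterase gene ges-1 96.0 CPM in long-term dauer libraries and 95.8 CPM in controls. Yolk, oocyte and eggshell genes were near the detection limit, with 11 of 17 tested, the highest being rme-2 with means of 7.21 CPM in long-term dauer libraries and 7.74 CPM in controls, and 0 called. Of 13 primordial germ cell genes and 5 embryonic genes 0 were called. In bulk larvae, fewer cells of a type and less RNA per cell cannot be told apart.

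Including LC4_49d changed the picture for growth genes. With all 7 long-term dauer libraries 0 genes passed an adjusted p under 0.05 and 1482 passed an unadjusted one (9.69%), 1098 higher (7.18%) and 384 lower (2.51%). The list of growth in fed larvae then had a median log2 fold change of 2.21 with 29 of its 38 tested genes higher, against a median of -0.09 and 1 higher gene without it. In LC4_49d icl-1 was at 340 CPM and adh-1 at 168 CPM, and nhr-23, a driver of the moulting cycle, at 78.9 CPM, against 7.86 to 15.1 CPM in the other long-term dauer libraries and 6.84 to 14 CPM in controls. Of the genes described above, R05H5.3 was at 61.0 CPM, pid-3 at 47.1 CPM, mcm-4 at 118 CPM and ima-2 at 155 CPM in that library, all above the other 18 starved libraries of the 2 ancestries. Starved short-term dauer descendants, compared with the same 12 controls, gave 0 genes at an adjusted p under 0.05 in edgeR and 176 at an unadjusted one (1.16%), with a log2 fold change of -1.16 for gst-20, 0.09 for mcm-4 and 0.14 for R05H5.3.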

How the data were processed

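Raw gene counts of 39 libraries were deposited by the authors, and values were whole numbers with no normalization. The submitters' processing notes name Bowtie 1.1.2, HTSeq and edgeR; the genome build is not given in the sources used here. Per the labels' protocols, libraries came from polyadenylated RNA with a non-directional kit, so a gene and an overlapping or antisense partner cannot be told apart. The 5 summary rows that name no gene were left out, and 44440 of 44968 features were matched to names and classes in Ensembl release 115; the 528 unmatched ones held at most 0.603% of gene counts.

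The test was that of edgeR 4.0.16, run under R 4.3.3 (TMM scaling, filterByExpr by ancestry, robust quasi-likelihood test, batch as a term, Benjamini-Hochberg adjustment over all genes tested). Unadjusted p-values are given because no gene passed the adjusted threshold, and they select genes for description only. Each batch was also fitted alone, and DESeq2 1.42.0 and limma 3.58.1 were alternatives. CPM are counts per 1000000 gene counts after TMM scaling over all 39 libraries. They are not per length, so levels of different genes are not compared. The code was tested on simulated data. Genes were named by a rule: up to 10 in each direction by size at an unadjusted p under 0.05, with the same sign in both batches and at least 5 CPM in the higher group, and in each list up to 4 members by p and 2 by level; others are said to have been chosen after their values were seen. The comparison, its members and the gene lists were chosen with earlier results of these data known. The series describes its samples as biological replicates, but nothing says which came from separate cultures, so p-values measure the spread between these libraries, which may be partly technical.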

Additional observations from a re-analysis of the deposited data

Results flagged for a closer look

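In 29 of 156 groups of values tested (18.6%), 1 library lay far from the others of its ancestry and batch. The genes tested were those reported here, several of them described because controls LC6 and 14 stood apart in them. The share therefore cannot be set against the 1 in 20 that chance gives for genes not chosen in this way. All but 2 of these were control LC6 or control 14, and the genes tested share those libraries, so the flags are not independent. Control LC6 was far above the other batch 1 controls for gst-20 (887 CPM), lipl-2 (144 CPM), T10C6.15 (56.4 CPM), cpr-2 (118 CPM), gst-15 (75.4 CPM), C08E3.5 (21.9 CPM), W02D7.11 (73.6 CPM), dao-6 (19.9 CPM), fbxc-7 (9.39 CPM), hsp-12.6 (52.0 CPM) and sod-3 (25.5 CPM). It was far below them for cnc-3 (3.54 CPM), adh-1 (264 CPM) and icl-1 (214 CPM). Its glutathione S-transferase genes summed to 1810 CPM, where the next control had 748 CPM, and its fasting metabolism genes to 5620 CPM, where the next had 16000 CPM.

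Control 14 was far above the other batch 2 controls for gst-20 (646 CPM), lipl-2 (181 CPM), T10C6.15 (67.7 CPM), gst-15 (79.3 CPM), C08E3.5 (17.3 CPM), W02D7.11 (105 CPM), dao-6 (17.9 CPM), hsp-12.6 (32.1 CPM) and sod-3 (21.4 CPM), and far below them for icl-1 (141 CPM) and mcm-4 (12 CPM, next 20.8 CPM). Control 13 was far above them for srpr-2.2 (5.11 CPM, next 2.52 CPM). Among batch 2 long-term dauer libraries, library 7 was far below the others for him-10 (5.80 CPM, next 7.44 CPM).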

How the results depend on the processing

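The count of 0 genes at an adjusted p under 0.05 held in the edgeR and limma fits run, and DESeq2 gave 1 in starved and 10 in fed larvae. The count at an unadjusted p under 0.05 (311) was 1482 with LC4_49d, 1212 with no filter on low counts, 199 with at least 5 CPM in at least 6 libraries, 555 with limma voom and 538 with batch 1 restricted to lane 4. With the same sign in both batches, these counts were 1386, 932, 196, 469 and 532, against 306. Genes whose groups did not overlap in either batch numbered 0 of 15440 in the main fit. They numbered 2 of 15651 with LC3_40d and LC3_49d summed and 4 of 15064 on lane 4. Without controls LC6, 13 and 14 (an alternative chosen after seeing the data) there was 1 of 15303. When 1 library was left out there were 0 to 8, the 8 being of 15622 genes without long-term dauer library 7. Fewer libraries make such a separation easier to reach by chance, so these counts are not read as a result. Leaving out 1 library gave 214 genes without control 14 and 424 without control 4_10 at an unadjusted p under 0.05. Signs turned for gst-20 (0.0468 without LC6, 13 and 14), cyp-13B1 (0.163 with LC4_49d) and srpr-1.2 (-0.115 in batch 2 alone); apart from the constructions named, the cause was not tested. With the replicate number as a block in batch 2 there were 0 genes at an adjusted and 236 at an unadjusted p under 0.05. Same-numbered libraries deviated with correlations of 0.0996 to 0.511, and 1 of 4 long-term dauer libraries correlated best with its own number. Batch 2 had the lower depth, and 2 batch 1 long-term dauer libraries limit that batch.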
